A study of Homo sapiens with 18 samples.

Results

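The comparison described here sets clone E1, an RB1 knockout of the G401 malignant rhabdoid tumour line, beside its RB1-intact control line while both were exposed to tazemetostat. It rests on 6 of the 18 RNA-seq libraries of the series, 3 from E1 and 3 from the control. Genes entered when their normalized count, the read count divided by a size factor of the library, averaged at least 10 over these 6 libraries. That left 16276 of the 55765 genes in the deposited table, or 29.2%. E1 carries a biallelic RB1 deletion made by CRISPR/Cas9 editing and was reported to lack RB1 protein on immunoblots. The control, labelled WT, was edited at the AAVS1 safe harbour site instead. All cells descend from G401, which lacks SMARCB1, and the compared cultures received 10 µM tazemetostat for 11 days in biological triplicate. The same lines given an equivalent volume of the solvent DMSO, and the second knockout clone F2 under tazemetostat, 3 libraries each, serve as reference points. E1 is a single clone, so anything acquired when it was isolated cannot be told apart from the loss of RB1.

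RB1 is a pocket protein that binds E2F transcription factors and holds genes for DNA replication silent until cyclin-dependent kinases phosphorylate it. Mitotic genes are switched on later in the cycle by B-MYB and FOXM1 and are kept off in resting cells by the DREAM complex, which contains the related pocket proteins RBL1 and RBL2. EZH2 is the catalytic subunit of PRC2, the complex that methylates histone H3 at lysine 27 and keeps developmental genes silent, and tazemetostat blocks its activity. Rhabdoid tumours lose SMARCB1, a subunit of the SWI/SNF remodeller that opposes PRC2, and EZH2 inhibitors can drive such cells out of the cycle.

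Depth recovered from the normalized counts was 28954561 to 39314860 reads in the 6 libraries and 25709489 to 39314860 over all 18. RB1 was 939, 947 and 1045 in the 3 E1 libraries and 2517, 2606 and 2300.4 in the 3 WT libraries under tazemetostat. The groups did not overlap, and E1 kept 39.5% of the WT level, or -1.34 ± 0.11 (SE) on the log2 scale at a limma adjusted p of 1.0e-08. With 3 libraries a side, the exact permutation test (two-sided) cannot go below p = 0.1, the value it gave. No library of the 18 held a read of SMARCB1 (0 reads). Of 12 leukocyte markers, 7 had at most 3 reads in every one of the 6 libraries, SPI1 had none, and PTPRC had at most 1 read. The tested leukocyte markers summed to 415.5 to 461 in E1 and 433.6 to 523.4 in WT, and LAPTM5 alone was past the threshold, at 159, 181 and 139 against 16.8, 26.2 and 38.2. For endothelium the tested markers summed to 47.4 to 69.2 in E1 and 70 to 102.2 in WT. The 6 tested epithelial markers, nearly all of whose signal was keratins KRT8 and KRT18, summed to 153239.5 to 159782 in E1 and 272850.3 to 285162.1 in WT, while EPCAM stayed at or below 11 reads and CLDN3 had 0. In such bulk RNA, fewer cells of a type and less RNA per cell cannot be told apart.

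Between E1 and WT under tazemetostat, 881 genes were higher and 1063 lower in E1 (limma; the threshold was a Benjamini-Hochberg adjusted p under 0.05 with at least 1 log2 unit of change). Those are 5.41% and 6.53% of all genes tested, 11.9% together, and 45.3% of them were higher. When all samples were scaled to 1 total the balance turned, with 1001 higher and 941 lower, or 51.5% higher. The 3 E1 libraries lay entirely above the 3 WT libraries for 857 of the 881 and entirely below them for 1052 of the 1063. Over all tested genes such separation was found upward in 28.9% and downward in 33.1%. The median log2 change was 1.32 among the higher genes, -1.48 among the lower ones and -0.02 over all tested genes. Large losses outnumbered large gains: 298 lower genes and 123 higher genes differed by at least 2 on the log2 scale, and 52 and 11 by at least 4. In 48 of the lower genes no E1 library had more than 3 reads, and in 8 of the higher genes no WT library did. All log2 changes were taken after adding 1 to each value, so those of low genes are understated.

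**Figure D1:**
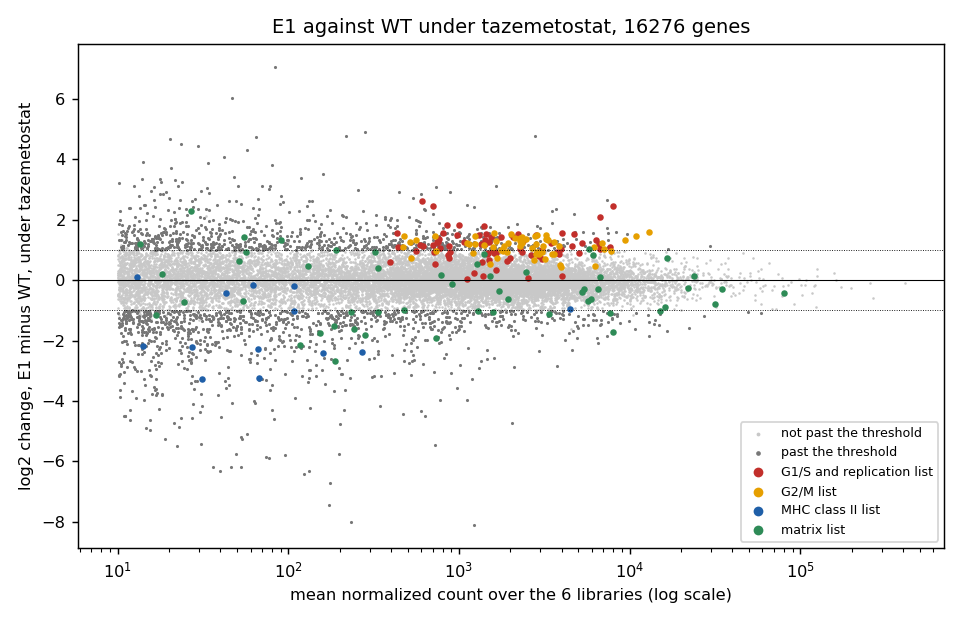
Log2 change of E1 against WT under tazemetostat (vertical axis) against the mean normalized count over the 6 libraries (horizontal log axis), 1 point per tested gene, with dotted lines at a log2 change of 1 in either direction. Genes of the G1/S and G2/M lists lie between 0.03 and 2.63, most of them above 1, while MHC class II genes lie between -3.28 and 0.10.

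The G1/S and G2/M lists had many higher and 0 lower members, so the promoters of 4 of their higher genes are shown first, as the 250 bases before the annotated RefSeq start (GRCh38.p14), read along the strand of the gene. Capitals mark matches to 3 sets of letters searched on both strands. These are E2F site letters (TTTCCCGC, TTTGGCGC, TTTCGCGC or TTTGCCGC), letters of the cell cycle homology region that recruits the DREAM complex (TTTGAA or TTCGAA), and the CCAAT box bound by NF-Y. PRIM1 encodes the catalytic subunit of DNA primase (chr12:56752324-56752573, minus strand), TYMS thymidylate synthase (chr18:657403-657652, plus strand), PCNA the sliding clamp of DNA polymerases (chr20:5126623-5126872, minus strand) and TOP2A the topoisomerase that disentangles sister chromatids (chr17:40417897-40418146, minus strand).
PRIM1: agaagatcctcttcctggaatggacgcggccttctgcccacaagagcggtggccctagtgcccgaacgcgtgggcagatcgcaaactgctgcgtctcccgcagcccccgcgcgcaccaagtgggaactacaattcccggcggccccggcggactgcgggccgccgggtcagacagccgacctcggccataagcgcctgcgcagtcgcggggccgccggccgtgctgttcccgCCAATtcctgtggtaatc
TYMS: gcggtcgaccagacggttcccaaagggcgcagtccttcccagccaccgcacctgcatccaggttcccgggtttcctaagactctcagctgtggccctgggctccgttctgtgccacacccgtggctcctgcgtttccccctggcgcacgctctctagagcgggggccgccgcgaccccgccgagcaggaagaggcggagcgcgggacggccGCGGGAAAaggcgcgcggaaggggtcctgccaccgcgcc
PCNA: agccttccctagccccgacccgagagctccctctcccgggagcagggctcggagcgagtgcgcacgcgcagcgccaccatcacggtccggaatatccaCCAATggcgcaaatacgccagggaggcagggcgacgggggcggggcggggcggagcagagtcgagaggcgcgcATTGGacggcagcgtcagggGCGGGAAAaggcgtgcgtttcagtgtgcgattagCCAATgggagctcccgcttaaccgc
TOP2A: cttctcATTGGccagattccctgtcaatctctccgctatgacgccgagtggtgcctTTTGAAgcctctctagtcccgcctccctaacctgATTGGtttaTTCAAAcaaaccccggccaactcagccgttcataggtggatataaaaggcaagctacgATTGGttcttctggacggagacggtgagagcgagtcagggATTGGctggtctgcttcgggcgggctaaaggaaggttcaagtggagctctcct

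TYMS and PCNA each carry GCGGGAAA, an E2F match on the opposite strand, 39 and 59 bases before the start counted to the first base of the match. PRIM1 holds a CCAAT box and no E2F match in this window. TOP2A holds 2 matches to the cell cycle homology letters and 4 ATTGG, which is CCAAT on the opposite strand. The G2/M genes PTTG1 and KIF14 differ from it: PTTG1 has no cell cycle homology match, and KIF14 has 1, which lies 2 bases after the start. In windows of 300 bases, 250 before and 50 after the start, E2F letters occurred in 45.0% of the 60 G1/S genes with a RefSeq promoter (of 73 on the list), in 5.77% of the 52 G2/M genes (of 60) in 5.21% of the 10278 tested genes with a promoter and in 3.33% of all 27305 promoters. Cell cycle homology letters were in 75.0% of the G2/M promoters, 6.67% of the G1/S promoters, 11.1% of tested genes and 16.6% of all. CCAAT was in 76.9%, 51.7%, 36.4% and 35.7%, in the same order. Among genes past the threshold, 478 of the 881 higher and 628 of the 1063 lower had a RefSeq promoter, and E2F letters were in 9.0% of the former and 2.07% of the latter, cell cycle homology letters in 21.1% and 14.2%, and CCAAT in 43.7% and 35.8%. The G1/S list was chosen as genes regulated by E2F. Its share of E2F letters follows in part from that choice and is no independent result. The 881 higher genes include 44 members of that list. A match describes these letters only and not binding of a factor.

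The list of G1/S and DNA replication genes regulated by E2F had 73 genes, all of which were tested. Of these, 44 (60.3%) were higher in E1 under tazemetostat and 0 were lower, where 5.41% of all genes were higher. The median log2 change was 1.12 against -0.02 for all genes. In 69 of the 73 all E1 libraries were above all WT libraries, as in 28.9% of all tested genes. PRIM1 led with 972, 1097 and 1075 in E1 and 182, 175 and 149 in WT, a 6.21-fold difference (log2 2.63 ± 0.09, SE; limma adjusted p 1.9e-13). TYMS, the source of thymidine nucleotides for DNA synthesis, stood at 12550.5, 14629 and 13336 in E1 and 2515, 2584 and 2192 in WT, 5.56-fold apart. The groups were far apart for both genes, with the lowest E1 library several times the highest WT library. CCNE2, a cyclin that activates CDK2 at the entry into S phase, was 1168, 1221 and 1189.98 in E1 and 229, 217 and 199.5 in WT, 5.55-fold apart. PCNA read 9817, 12054 and 10737 in E1 and 2524, 2878 and 2203 in WT (log2 2.10 ± 0.11; limma adjusted p 4.6e-11).

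The other members covered most of the replication machinery. The MCM helicase subunits MCM6, MCM4, MCM7, MCM2 and MCM3 were higher by 1.57, 1.34, 1.19, 1.05 and 1.05 on the log2 scale, and MCM5 stood at 0.71, short of the fold limit. The origin licensing factors CDC6 and ORC1 were higher by 1.03 and 1.12, while CDT1 was at 0.98. Geminin, encoded by GMNN, which blocks CDT1 after origins fire, was higher by 1.82. Both ribonucleotide reductase subunits RRM1 and RRM2 were higher, by 1.53 and 1.14. CCNA2, the cyclin of S phase and G2, was 2783, 3249 and 3086 in E1 and 1169, 1244 and 972 in WT (log2 1.43 ± 0.09; limma adjusted p 2.6e-10). CCNE1 was 1937, 2260.2 and 2094 against 1089.9, 1194 and 1102; the groups did not overlap, yet its log2 change of 0.89 ± 0.06 stayed under the fold limit (limma adjusted p 2.7e-09). At the low end, ORC6, PRIM2, TK1 and RPA2 differed by 0.03, 0.06, 0.14 and 0.14.

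All 60 genes on the G2/M and mitosis list were tested, 40 were higher in E1 and 0 lower, with a median log2 change of 1.18. The E1 libraries lay above the WT libraries for each of the 60, and for 28.9% of all tested genes. TOP2A was 17288, 20681 and 20156 in E1 and 6582, 6868 and 5757 in WT, a 3.03-fold difference (log2 1.60 ± 0.09; limma adjusted p 1.7e-10). The mitotic kinesin KIF14 had 2219, 2445 and 2496 in E1 and 837, 829.6 and 773 in WT. PTTG1, the securin that holds separase in check, was 2794, 3146 and 3004 against 1075, 1077 and 961, and the spindle protein NUSAP1 4234, 5057 and 5051 against 1746, 1905 and 1452. These differences were narrower than those of the leading replication genes, between 2.81-fold for NUSAP1 and 3.03-fold for TOP2A. The proliferation marker MKI67 was 15389, 15251 and 16948 in E1 and 5768, 6023 and 5598 in WT, 2.74-fold apart. AURKB, a kinase of the chromosomal passenger complex, was 2676, 2474 and 2463 against 1171, 1133 and 1137 (log2 1.14 ± 0.10; limma adjusted p 3.8e-08). FOXM1, the activator of this gene set, was higher by 1.36, and the kinases PLK1 and AURKA by 1.44 and 1.12. CDK1 stood at 0.86 and CCNB1 at 1.04, the latter past the threshold. The smallest differences were those of ECT2, CKS2, CDC20 and CKS1B, from 0.44 to 0.54.

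The same genes in DMSO place these values. Summed over the G1/S list, normalized counts were 213651.8 to 237436.4 in E1 and 95975.8 to 106153.9 in WT under tazemetostat, but 250784.1 to 257620.5 and 220787.6 to 240716.5 in DMSO. For the G2/M list the sums were 229722.1 to 262039.3 in E1 and 105358.5 to 119560.5 in WT under tazemetostat, and 236657.8 to 255097.4 and 244037.7 to 260245.5 in DMSO. Of these 4 groups, WT under tazemetostat alone was low, and E1 under tazemetostat lay within or near the DMSO ranges. In DMSO, 1 G1/S gene and 0 G2/M genes differed between E1 and WT past the threshold, where 5.01% of all genes did, with median log2 changes of 0.06 and -0.06. The difference between E1 and WT was itself larger under tazemetostat than in DMSO for 45 G1/S and 46 G2/M genes, and smaller for 0 of either list, where 10.5% of all genes passed this test in either direction. Run on the recovered reads, edgeR's quasi-likelihood test called all 45 and all 46. Not all members behaved alike in DMSO. TYMS was already 13626 ± 1118 in E1 and 7573 ± 597 in WT without the inhibitor (SD, n = 3), a log2 difference of 0.85 that stayed under the fold limit, and CCNE2 was past it at 1.27. CCNE1 differed by 0.72 in DMSO and 0.89 under tazemetostat, and the test of the change between them gave 0.17 (limma adjusted p 0.16).

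**Figure D2:**
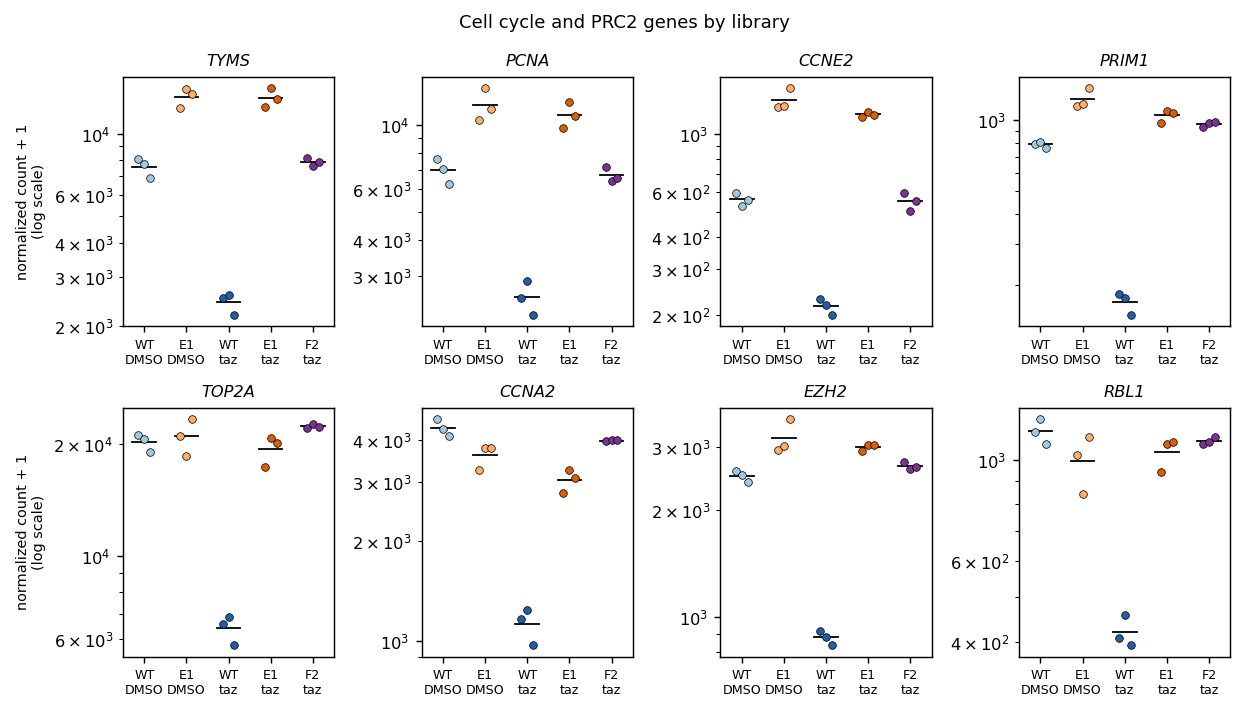
Normalized counts plus 1 (log axis) of 8 cell cycle and PRC2 genes in each library of WT and E1 in DMSO and of WT, E1 and F2 under tazemetostat (taz), with a bar at the group mean. In each panel the 3 WT libraries under tazemetostat are the lowest, for example 832 to 916 for EZH2 against 2916 to 3028 in E1.

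Among the 10 E2F factors and DP partners, E2F7 and E2F8 were higher in E1 and 0 members were lower. These 2 are atypical repressors that are themselves E2F targets. E2F7 was 2154, 2052 and 2014 in E1 and 576, 644 and 626 in WT (log2 1.75 ± 0.08), and E2F8 566, 608 and 595 against 243, 229 and 225 (log2 1.34 ± 0.08). E2F1, an activator, was 895, 913 and 939 against 767, 677 and 752; the groups did not overlap, but a log2 change of 0.32 ± 0.07 is well under the fold limit (limma adjusted p 0.00048). TFDP1 and E2F2 stood at 0.85 and 0.66, and E2F3, E2F4 and E2F5 between -0.08 and 0.36. Of the pocket proteins, RBL1 was higher, 942, 1084 and 1097 in E1 against 407, 456 and 392 in WT (log2 1.31 ± 0.10; limma adjusted p 2.8e-09), and RBL2 differed by 0.16.

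The drug's own target was among the higher genes. EZH2 was 2916, 3023 and 3028 in the E1 libraries and 916, 880.1 and 832 in the WT libraries, 3.41-fold apart with no overlap (log2 1.77 ± 0.07; limma adjusted p 1.1e-12). In DMSO it was 3178 ± 349 in E1 and 2478 ± 89.4 in WT (SD, n = 3), a log2 difference of 0.35. PHF19, a PRC2 subunit that reads methylated histone H3, was 2390.2, 2096 and 2201 in E1 and 1050.5, 1042 and 996 in WT (log2 1.11 ± 0.07). EZH2 and PHF19 made 2 of 11 PRC2 genes higher (18.2%), against 5.41% of all tested genes. The other 9 PRC2 genes did not pass, among them the core subunits EED at 0.83 and SUZ12 at 0.25, and EZH1, the alternative catalytic subunit, at -0.14. None of the 24 tested SWI/SNF genes of 26 listed passed. SMARCA4, an ATPase of the complex and its member with the highest mean, was 9990 ± 611 in E1 and 12843 ± 141 in WT (SD, n = 3; log2 -0.36).

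CDK inhibitors moved in opposite directions. CDKN1A, which encodes p21, was 10891, 10559 and 10771 in E1 and 4329, 4364 and 4161 in WT (log2 1.33 ± 0.07; limma adjusted p 1.1e-10). It was also higher in DMSO, by 2.09, and the change of the difference with tazemetostat, -0.77 on the log2 scale, stayed under the fold limit. CDKN2B, which encodes the INK4 inhibitor p15, was 1451, 1472 and 1695 in E1 and 7916, 7393 and 7599.5 in WT, 4.95-fold lower (log2 -2.31 ± 0.09; limma adjusted p 2.3e-12). CDKN2B was lower in DMSO too, at far smaller values, 235 ± 29.8 in E1 and 798 ± 63.1 in WT (SD, n = 3; log2 -1.76). CDKN2A, whose products include p16, was 3221, 2953 and 3324 against 4163, 4279.9 and 3858, a log2 change of -0.37 ± 0.09 that did not reach the fold limit. CDKN1B, CDKN1C, CDKN2C and CDKN2D differed by 0.12, -0.74, 0.85 and -0.67, and none of them passed. An antisense transcript runs through the CDKN2A and CDKN2B locus, and whether the counting used the strand is not given in the sources used here.

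Targets of p53 split as well. Of 37 tested genes of 39 listed, 6 were higher (16.2%) and 2 lower (5.41%), with a median log2 change of 0.36. Over all tested genes 5.41% were higher and 6.53% lower. EDA2R, a receptor of the TNF family, was 1328, 1306 and 1284 in E1 and 163, 140.3 and 159 in WT, 8.48-fold higher (log2 3.08 ± 0.11; limma adjusted p 4.3e-13). The death receptor FAS was 1597, 1839 and 1667 against 612, 607 and 543 (log2 1.53 ± 0.38). DDB2, a sensor of damaged DNA, and TNFAIP8 and FBXO22 were higher by 1.11, 1.18 and 1.05. The kinase PLK2 was 412, 518 and 431 in E1 and 2833, 2839.6 and 2523 in WT, 6.02-fold lower, and PMAIP1, which encodes the BH3-only protein NOXA, was 5.25 ± 2.32 against 43.8 ± 5.66 (SD, n = 3). PMAIP1 was also the only member past the threshold among 17 tested BCL2 family genes, where MCL1 stood at -0.05. For p53 targets the DMSO comparison gave 8 higher and 1 lower of 37, with a median of 0.57, where 5.01% of all tested genes differed. The E1 minus WT difference moved down with tazemetostat past the threshold in 3 of the 37 and up in 0. Of all tested genes 10.5% passed this test in either direction. The difference went from -1.52 to -2.59 for PLK2, a wider gap, and from 2.24 to 0.80 for TRIM22, a narrower one, while PMAIP1 had at most 1 read in each DMSO library. The quasi-likelihood test of edgeR called this change for PLK2 and TRIM22 and not for PMAIP1.

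By the rule applied, the 10 largest rises and 10 largest falls were taken from genes past the threshold whose groups did not overlap and whose mean was at least 50. RP11-493L12.3, a transcript with a clone-based name, was 161, 169 and 169 in E1 and 0, 0.935 and 0 in WT, at least 52.7-fold higher. PRKD1, which encodes protein kinase D1, was 495, 543 and 604 against 15.8, 15 and 20.9, 31.8-fold higher (log2 4.92 ± 0.31; limma adjusted p 4.9e-10). EPHA3, a receptor for ephrins, was 4866, 5593 and 5753 against 175, 219 and 196, 27.5-fold higher. These 3 differ in DMSO: PRKD1 had 0 reads in all 6 DMSO libraries of both lines, whereas EPHA3 was 8939 ± 1316 in E1 and 61.5 ± 12.5 in WT and RP11-493L12.3 438 ± 37.9 and 1.26 ± 1.45 (SD, n = 3).

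INPP5D, a phosphoinositide phosphatase best known from blood cells, was 434, 438 and 387 in E1 and 21.7, 8.42 and 16 in WT, and had a difference of 4.57 in DMSO against 4.77 under tazemetostat. ZSCAN4, a zinc finger gene of the cleavage-stage embryo, was 128, 114 and 132 against 0.985, 7.48 and 4.93. TRIM49C was 115, 110.3 and 103 against 4.93, 7.48 and 2.46, and its near-identical relative TRIM49 was 164, 171 and 117 against 15.8, 11.2 and 4.93; reads of these 2 genes may have been split between them, and neither had a read in the DMSO libraries of E1 or WT. TMEM246 was 211, 192 and 244 against 18.7, 16.8 and 24.6, though in DMSO E1 was the lower line, at 2.24 ± 1.53 against 8.65 ± 2.6 (SD, n = 3; log2 -1.65). Another clone-named transcript, RP11-7F17.7, was higher by 3.13. Clone-based names can stand for transcripts that overlap or run antisense to other genes, which leaves both of them uncertain.

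On the other side, LINC00052, a long noncoding RNA, was 1.06, 5.8 and 47.1 in E1 and 2572, 2526 and 2218 in WT, 136-fold lower on the means, although E1 replicate 3 was well above the other E1 libraries. ARSD, an arylsulfatase gene, was 0, 1.93 and 0.942 against 442, 521 and 427, at least 156-fold lower. PDE11A, a phosphodiesterase of cyclic nucleotides, was 3.19, 0.967 and 1.88 against 244, 275 and 213, at least 82.1-fold lower. NTRK3, the receptor for neurotrophin 3, was 1.06, 0.967 and 7.54 against 264, 253 and 269.7, 82-fold lower. GYLTL1B, a glycosyltransferase of the LARGE family, was 3.19, 0.967 and 3.77 against 171, 183 and 212. All of these were already lower in E1 than in WT in DMSO, with log2 changes of -7.75 for LINC00052, -7.09 for ARSD, -9.75 for PDE11A, -9.50 for NTRK3 and -6.70 for GYLTL1B. In E1 these values lie at the limit of detection for all but LINC00052: in DMSO ARSD, PDE11A and NTRK3 had 0 reads and GYLTL1B at most 2, which makes them at least 47.8-fold, 305-fold, 255-fold and 106-fold lower.

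The other large falls were in genes with few or no reads in DMSO. NDNF, a secreted neurotrophic factor, was 1.06, 0.967 and 0.942 in E1 and 373, 364 and 302 in WT, at least 116-fold lower, and its DMSO means were 0 and 2.83. C8orf4 was 2.13, 0.967 and 4.71 against 359.7, 373 and 313, and DDIT4L, an inhibitor of mTORC1 signalling, 1.06, 2.9 and 0.942 against 157, 129 and 150.2, with 0 reads for either gene in all 6 DMSO libraries. PPARGC1A, the coactivator of mitochondrial biogenesis, was 2.13, 1.93 and 0.942 against 151, 166 and 140.4, at least 51.3-fold lower, and ARAP2 0, 1.93 and 0 against 130.1, 91.7 and 94.8, at least 35.5-fold lower. For these 5 genes, of the 4 groups of E1 and WT, only WT under tazemetostat exceeded 50 normalized counts. PGBD5, a gene derived from a transposase, showed the reverse layout. It was 969.9, 1042 and 986 in E1 and 838, 851 and 867 in WT under tazemetostat, and these groups did not overlap. The log2 change was 0.23 ± 0.23 (SE; limma adjusted p 0.42). This SE comes from a spread shared by all 6 groups, among them E1 in DMSO at a few reads, and not from these 6 libraries alone. In DMSO PGBD5 was 2.56 ± 1.53 in E1 against 130 ± 2.51 in WT (SD, n = 3), a difference of -5.31.

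MHC class II genes were the list with the lowest median. These genes encode the chains that present peptides to CD4+ T cells, their loading factors, and CIITA, their master activator. Of 13 tested genes of 14 listed, 8 were lower in E1 (61.5%, against 6.53% of all genes). None were higher, and the median log2 change was -2.17. HLA-DPA1 was 98, 89 and 75.4 in E1 and 456, 503 and 404 in WT (log2 -2.37 ± 0.37; limma adjusted p 3.9e-05). HLA-DPB1, which encodes its partner chain, was 52.2, 45.5 and 49.9 against 256, 279 and 271, HLA-DRA 10.6, 16.4 and 9.42 against 141, 118 and 108 and HLA-DRB1 25.6, 17.4 and 23.6 against 132, 103 and 94.8. WT was higher in each library for all of these, at levels that stayed low beside those of the cell cycle genes. CIITA was 9.3 ± 2.47 in E1 and 45.5 ± 1.22 in WT (SD, n = 3; log2 -2.20), and HLA-DMA, HLA-DQA1 and HLA-DRB5 were lower, with log2 changes of -1.03, -3.28 and -2.17. The E1 means of CIITA, HLA-DQA1 and HLA-DRB5 were under 10, so these genes passed the filter through WT. The share of lower genes on this list rests in part on that filter. CD74, the invariant chain and the most abundant of them, stood at 3031 ± 211 against 5873 ± 171, a log2 change of -0.96 just short of the limit. Members of this family are polymorphic and alike in sequence, so the counting could split their reads.

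In DMSO 6 of the 13 genes had at most 3 reads in every E1 and WT library, among them HLA-DRA and CIITA, whereas CD74 had means of 2755 in E1 and 1975 in WT. E1 was the higher line there for HLA-DPA1, HLA-DPB1 and HLA-DOA, by 1.56, 2.13 and 1.06, from means of 15.6, 14.6 and 48.6 in E1 and 5.11, 2.16 and 24.5 in WT. HLA-DRB1 was lower there at a log2 change of -1.46, but with at most 3 reads in any of those libraries, and the median was 0.33. The difference between E1 and WT was lower under tazemetostat than in DMSO for 8 class II genes in limma, where 10.5% of all tested genes passed in either direction. Of these 8, 4 had at most 3 reads in every DMSO library of both lines. The test of edgeR called the other 4 only. Of 21 tested genes of MHC class I and peptide loading, HLA-E, a ligand of NK cell receptors, was lower, 5031, 4776 and 4740.1 against 10618, 10491 and 10040.3 (log2 -1.10 ± 0.09), and 0 were higher, with a median of -0.09. HLA-E alone is 4.76% of the tested list, where 6.53% of all tested genes were lower. HLA-B, HLA-C and B2M stood at -0.42, -0.55 and -0.66.

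Interferon-stimulated genes were also lower where they differed. Of 46 tested genes of 55 listed, 11 were lower (23.9%) and 1 was higher (2.17%), and the median log2 change was -0.30. Over all tested genes 6.53% were lower and 5.41% higher. IFI6 was 382, 339 and 370.3 in E1 and 1166, 1122 and 1138 in WT (log2 -1.65 ± 0.11; limma adjusted p 1.3e-09), and IFITM1, which restricts the entry of viruses, 484, 506 and 475 against 1577, 1462 and 1496. OAS2, a sensor of double-stranded RNA, was 20.2, 22.2 and 38.6 against 73.9, 74.8 and 87.4, and the antiviral enzyme RSAD2 26.6, 31.9 and 34.9 against 98.5, 88.9 and 73.9. ISG15, ISG20, IFIT2, IFITM3, GBP2, DHX58 and LGALS3BP were lower too, with log2 changes between -1.27 and -1.04. The 1 higher member was TLR3, an endosomal receptor for double-stranded RNA, at 60.0 ± 6.41 in E1 and 6.58 ± 2.34 in WT (SD, n = 3; log2 3.06). IFI6 and IFITM1 were well expressed in DMSO and did not pass there, at 0.34 and 0.03. The difference changed by -1.99 and -1.65 with tazemetostat.

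Cytokine and chemokine genes went both ways, with 10 of 30 tested genes lower (33.3%), 4 higher (13.3%) and a median of 0.21. Those shares stand against 6.53% lower and 5.41% higher of all tested genes. The monocyte chemoattractant CCL2 was 29.8, 28 and 37.7 in E1 and 1539, 1374 and 1357 in WT, 44.6-fold lower (log2 -5.45 ± 0.17; limma adjusted p 1.1e-13). The neutrophil chemoattractants CXCL5 and CXCL6 followed, CXCL5 at 124, 158 and 112 against 969.7, 978 and 723 and CXCL6 at 482, 541 and 495 against 1742, 1692 and 1468. TNFSF15 was 38.3, 44.5 and 48.1 against 214, 211 and 175. No E1 library reached the WT range for any of them, and CCL2, CXCL5 and TNFSF15 had 0 reads in the 6 DMSO libraries. CXCL9, CXCL10, CCL20, TNFSF13B, TNFSF4 and IL32 were lower, with log2 changes of -2.17, -2.02, -1.19, -1.15, -1.04 and -1.02. In contrast, 4 inflammatory mediators were higher. IL6 was 1275 ± 3.86 in E1 and 429 ± 19.6 in WT, TNF 216 ± 2.14 against 85.7 ± 7.06, IL1B 35.7 ± 5.35 against 7.09 ± 2.97 and CX3CL1 18.5 ± 3.86 against 6.35 ± 3 (SD, n = 3). On the mean, CXCL9 and CXCL10 were under 10 in E1 and passed the filter through WT, while IL1B and CX3CL1 passed it through E1. The counts rest in part on that filter. Without the inhibitor, 7 of the 30 cytokine genes were higher in E1 and 1 lower, with a median of 0.34, where 5.01% of all tested genes differed. The E1 minus WT difference moved up with tazemetostat past the threshold in 1 of the 30 and down in 12, where 10.5% of all tested genes passed in either direction. Of those 12, 7 stayed at 3 reads or fewer throughout the E1 and WT cultures in DMSO, and edgeR called the other 5 only.

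**Figure D3:**
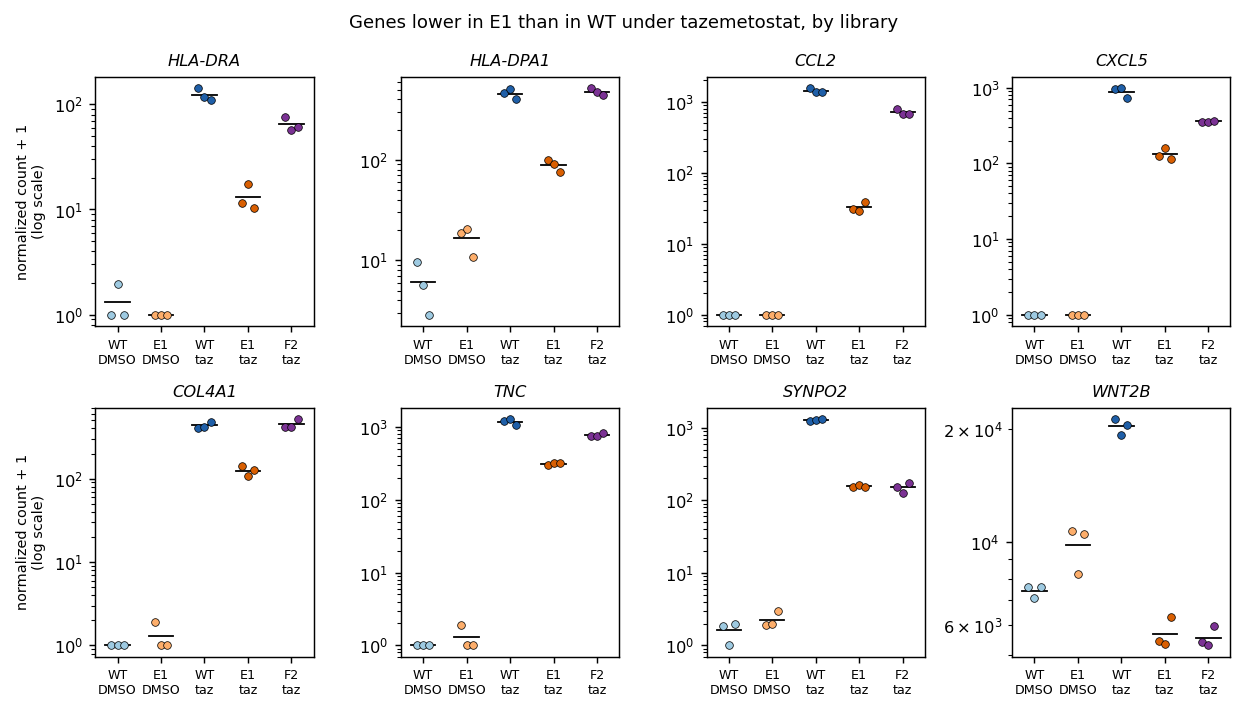
Normalized counts plus 1 (log axis) of 8 genes that were lower in E1 than in WT under tazemetostat, by library, in DMSO and under tazemetostat (taz), with a bar at the group mean. CCL2 and CXCL5 read 0 in all DMSO libraries shown, and clone F2 lies near WT for COL4A1 and HLA-DPA1 and near E1 for SYNPO2 and WNT2B.

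Extracellular matrix genes held the largest number of lower members of any list, but not the largest share. Of 53 tested genes of 65 listed, 16 were lower (30.2%) and 5 higher (9.43%), with a median log2 change of -0.37. The lower share was 61.5% for MHC class II and 33.3% for cytokine genes, and both lists held lower members that passed the filter through WT. In DMSO 5 matrix genes were lower and 2 higher, and 16 had at most 3 reads in every library of both lines. When all samples were scaled to 1 total, 11 were lower. The proteoglycan LUM was 41.5, 59 and 49 in E1 and 351, 342 and 282 in WT (log2 -2.69 ± 0.30; limma adjusted p 7.0e-07). The basement membrane genes LAMB1 and COL4A1 were 38.3, 46.4 and 42.4 against 175, 213 and 188 and 142, 105 and 124 against 406, 419 and 482, and COL4A2, COL4A6 and LAMA2 were lower, with log2 changes of -1.76, -1.50 and -1.15. Tenascin C, encoded by TNC, was 293, 313 and 320.3 against 1194, 1261 and 1041. Among the abundant members, SPARC was 3739 ± 134 against 12162 ± 401.3, fibronectin gene FN1 4897 ± 461 against 10426 ± 611 and COL6A1 9908 ± 1606 against 20144 ± 1999 (SD, n = 3). The higher members were COL13A1, COL15A1, FBN2, FBLN2 and LAMB3, by 1.43, 1.33, 2.30, 1.21 and 1.05. LAMB3, a laminin chain of epithelia, was the abundant one, at 7827 ± 527 in E1 and 3787 ± 209 in WT (SD, n = 3). Keratin and cadherin markers of epithelium were lower in the same libraries, KRT8 at -0.88, KRT18 at -0.77 and CDH1 at -1.32. Of these CDH1 passed. It was lower in DMSO too, and its gap narrowed with tazemetostat, by 2.73. The part of these markers in the matrix differences was not tested.

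Of the 19 integrin genes, 2 were lower and 2 higher, 10.5% each way against 6.53% and 5.41% of all genes. ITGA11, a collagen-binding chain, was 20.2, 32.9 and 36.7 in E1 and 248, 192 and 267 in WT (log2 -2.96 ± 0.42), and ITGA4 was 11.1 ± 5.17 against 49.8 ± 13.7 (SD, n = 3). ITGA2, another collagen-binding chain, was 3168, 3234 and 3564 against 1371, 1295 and 1422, and ITGA10 was 95.8, 86.1 and 106 against 44.3, 31.8 and 64. For ITGA10 the call was lost without WT replicate 2, at a log2 change of 0.83. In the list of YAP and TEAD targets, read as a sign of tension and cell contact, 3 of 23 tested genes were lower and 0 higher, with a median of -0.37. IGFBP3 was 3033, 3370.4 and 3146 in E1 and 11888, 11315 and 11161 in WT, CTGF 5158, 5487 and 5119 against 17267, 15911 and 15448 and F3, tissue factor, 43.7, 78.3 and 48.1 against 159, 140.3 and 158. The classical targets CYR61 and ANKRD1 stood at -0.37 and -0.63 and did not pass. The contractile list had 3 lower and 1 higher of 34 tested genes, which is 8.82% and 2.94% against 6.53% and 5.41% of all genes. SYNPO2, an actin-bundling protein of muscle, was 149, 161 and 152 against 1232, 1281 and 1304, 8.26-fold lower. CNN1, calponin of smooth muscle, was 611, 511 and 546 against 1126, 1189.7 and 1117 at a log2 change of -1.04, and fell just under the limit, at -0.98, when all samples were scaled to 1 total and, at -0.99, without E1 replicate 2. NEB was 88.4, 64.8 and 66 against 139, 140.3 and 235, and its call was lost without WT replicate 3, at -0.94. MYL7 was the higher member, 15.5 ± 0.448 against 5.47 ± 4.74 (SD, n = 3).

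Axon guidance and EPH genes included both extremes. Of 60 tested genes of 71 listed, 9 were lower (15.0%) and 5 higher (8.33%), with a median of -0.20. Over all tested genes 6.53% were lower and 5.41% higher. Besides EPHA3, the netrin gene NTN1 was 2038, 1756 and 1898 in E1 and 342, 337 and 331 in WT, 5.64-fold higher, and DRAXIN, which encodes a netrin-binding repellent, 1019.96, 1091 and 1027 against 196, 208 and 206. SLIT2, a repellent read by ROBO receptors, was 109, 116 and 109 against 401.1, 422 and 371 (log2 -1.83 ± 0.28). EPHA4, EPHA7 and EPHB3 were lower, with log2 changes of -2.42, -1.36 and -1.09. The semaphorins SEMA3E and SEMA6B were lower too, at -1.14 and -1.30, and so were the semaphorin receptors PLXNA3 and PLXNC1, at -1.07 and -2.76. SEMA4D and the plexin gene PLXNB3 were higher by 1.20 and 1.10. Of 31 tested receptor tyrosine kinases outside the EPH family, 5 were lower (16.1%) and 1 higher (3.23%). PDGFRB, a receptor of mesenchymal cells, was 1251, 1093 and 1203 in E1 and 3122, 2912 and 2935 in WT (log2 -1.34 ± 0.08; limma adjusted p 1.2e-10), and FLT1, a VEGF receptor, 22.4, 22.2 and 31.1 against 84.7, 92.6 and 99.8. RET, the GDNF receptor, was 375, 387 and 374 against 157, 152 and 153. For PDGFRB the DMSO means were 4740.3 in E1 and 3726 in WT, with E1 the higher line by 0.34.

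Of 40 tested WNT genes, 3 were lower and 3 higher, with a median of -0.03. At 7.5% in each direction, this is near the 6.53% lower and 5.41% higher of all tested genes. WNT2B was 5447, 5341 and 6319 in E1 and 21282, 19382 and 20535 in WT, 3.57-fold lower (log2 -1.84 ± 0.09; limma adjusted p 1.8e-11), and WNT5B 99, 106 and 108 against 274, 253 and 289. WNT5A, a ligand of the planar polarity branch, was 2004, 1851 and 2072 against 877, 829.6 and 818. PRICKLE1, a core planar polarity gene, was 2702, 2994 and 3181 against 332, 319 and 369, 8.7-fold higher, and VANGL2, of the same branch, was 34.6 ± 8.11 against 8.87 ± 3.63 (SD, n = 3). The PRICKLE1 difference was larger in DMSO, 6.75 against 3.12, where the WT mean was 34.3. In TGF-beta and BMP signalling, 5 of 46 tested genes (10.9%) were lower and 2 (4.35%) higher, against 6.53% and 5.41% of all genes. INHBA, which encodes the activin A subunit, was 64.9, 57.1 and 65 in E1 and 601, 642 and 464 in WT, 9.09-fold lower. The BMP ligand GDF5 was 42.6, 46.4 and 41.5 against 190.2, 179.6 and 160.1 and the BMP antagonist NOG 47.9, 35.8 and 39.6 against 159, 171 and 164. BMP4 and the activin antagonist FSTL3 were lower, with log2 changes of -1.20 and -1.26, and FST, another activin antagonist, was higher, 25.2 ± 5.53 against 4.61 ± 1.34 (SD, n = 3). ID4, a BMP target, was 1284, 1127 and 1267 against 416, 434 and 414 and was higher by 1.54.

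Developmental transcription factors that PRC2 typically holds silent showed no common direction. Of 156 listed, 93 were tested, 11 were higher (11.8%), 9 were lower (9.68%), and the median log2 change was 0.18. Over all tested genes 5.41% were higher and 6.53% lower. LHX1 and PAX8, both of the developing kidney, were higher: LHX1 was 361, 338 and 351 in E1 and 57.2, 78.6 and 117 in WT, and PAX8 147, 113 and 145 against 45.3, 29.9 and 56.6. Along the HOXB cluster, HOXB2, HOXB3, HOXB5 and HOXB6 were higher by 1.20, 1.14, 1.06 and 1.24, HOXB4 and HOXB7 stood at 0.54 and -0.16, and HOXB13 at the other end of the cluster was lower, 1717, 1574 and 1552 against 4306, 4203 and 3947 (log2 -1.36 ± 0.11; limma adjusted p 8.0e-09). OTX2, a transcription factor of the early brain, was 1465 ± 73.8 in E1 and 3145 ± 184 in WT (SD, n = 3), and FOXC2, TLX3, EYA4 and GATA5 were lower from WT means of 46.1, 24.4, 22.7 and 26.7. In E1 the means of FOXC2, TLX3, EYA4 and GATA5 were under 10. These genes passed the filter through WT, so their part in the count of lower genes carries no weight. In the kidney development list, 2 of 11 tested genes passed (18.2%), the same LHX1 and PAX8, while PAX2 stood at 0.52.

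Several lists held no gene past the threshold in either direction. None of 74 ribosomal protein genes passed, with a median of 0.09, and RPL3 was 47881 ± 987 in E1 and 45626 ± 1729 in WT (SD, n = 3). None of 13 mitochondrially encoded respiratory genes passed, with a median of -0.17. None of 23 cholesterol synthesis genes passed, with a median of -0.03. At an unadjusted p under 0.05 and no fold limit, 9365 of all tested genes differed.

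**Figure D4:**
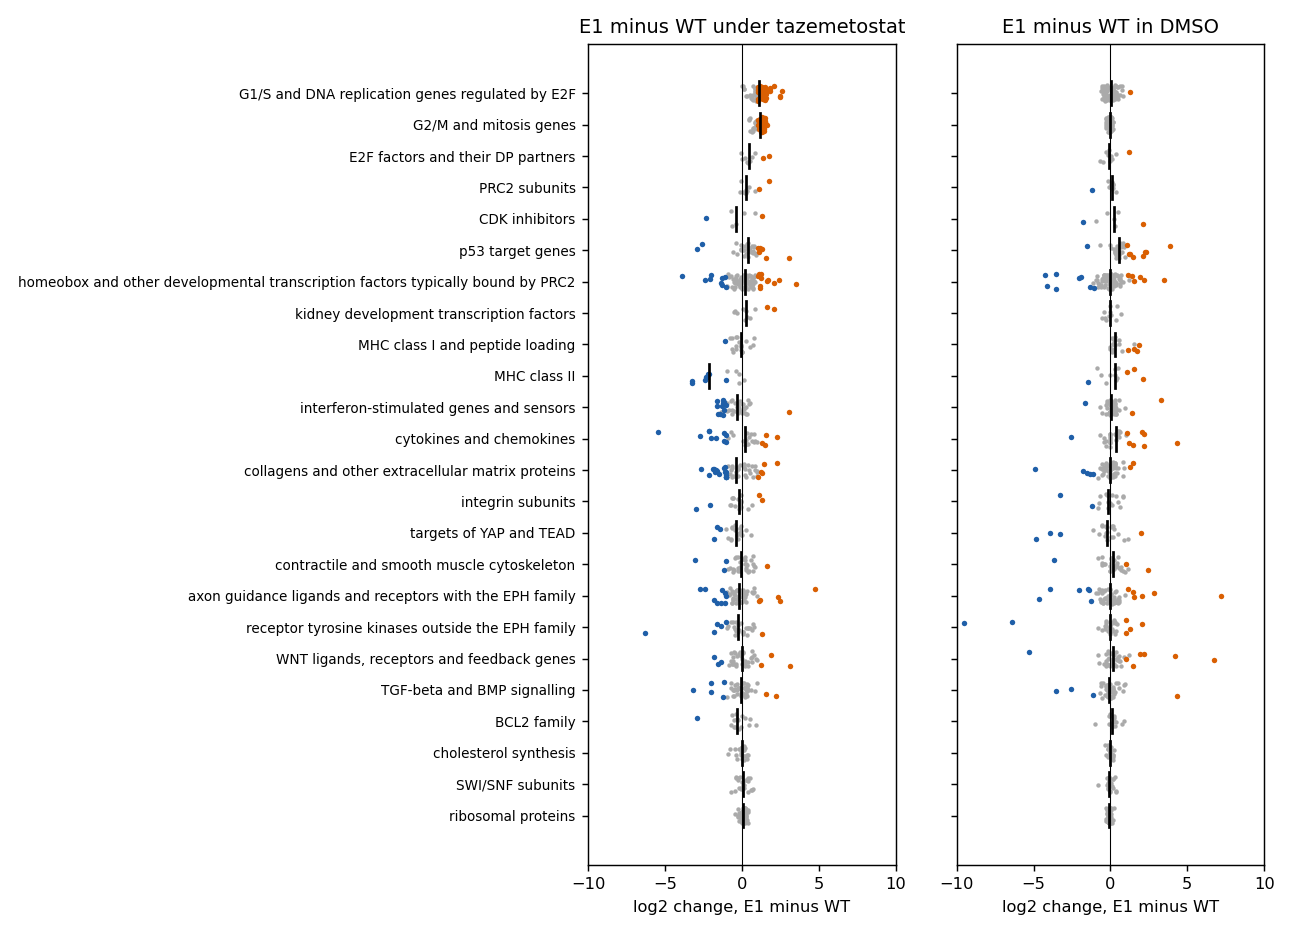
Log2 change of E1 against WT for each tested gene of 24 gene lists under tazemetostat (left) and in DMSO (right), with orange for genes past the threshold and higher, blue for lower, grey for the others, and a black bar at the median of the list. The G1/S and G2/M lists sit at medians of 1.12 and 1.18 under tazemetostat and 0.06 and -0.06 in DMSO, and MHC class II at -2.17 and 0.33.

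How much of the E1 difference was there without the inhibitor was read from the DMSO libraries, which share no sample with the tazemetostat comparison. Without the inhibitor E1 exceeded WT in 395 genes and was below it in 420, together 5.01% of all tested. Of the 881 genes higher under tazemetostat, 154 were higher in DMSO as well, which is 17.5% of the 881 and 39.0% of the 395, and 11 were lower there. Of the 1063 genes lower under tazemetostat, 194 were lower in DMSO, 18.3% of the 1063 and 46.2% of the 420, and 17 were higher. Genes higher under tazemetostat had a median log2 change of 0.23 in DMSO, and those lower one of -0.21. Tested directly, the difference between E1 and WT changed with tazemetostat in 1707 genes, upward in 774 and downward in 933 (limma adjusted p under 0.05 and a change of at least 1). In 109 of the 774 and 261 of the 933, all 6 DMSO libraries had at most 3 reads. The quasi-likelihood test of edgeR called 7 of those 109 and 13 of those 261, against 635 of the other 665 and 634 of the other 672.

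**Figure D5:**
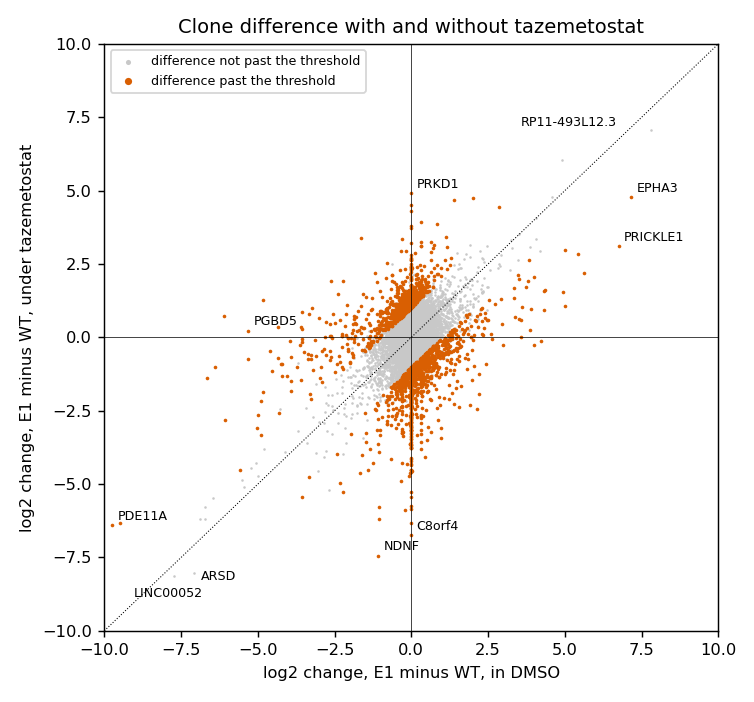
Log2 change of E1 against WT in DMSO (horizontal axis) and under tazemetostat (vertical axis) for each tested gene, with orange marking genes whose difference itself changed past the threshold and a dotted line where both changes are equal. LINC00052 and ARSD lie near the line, while PRKD1 and C8orf4 lie on the vertical axis and PGBD5 near the horizontal one.

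Whether a difference belonged to E1 or to RB1 knockout cells more widely was examined against clone F2 under tazemetostat. This comparison shares the E1 libraries with the one above. E1 and F2 differed in 1158 genes (7.11% of all tested), 463 higher and 695 lower in E1. On the G1/S list 1 gene was higher in E1 than in F2 and 0 lower, with a median log2 difference of -0.03, and on the G2/M list 0 differed, with a median of -0.28. EZH2 was 2717, 2599.9 and 2632 in the F2 libraries, a difference of 0.17 ± 0.07 (SE; limma adjusted p 0.055), and CCNA2 was 3973, 3995 and 3989.5, with a difference of -0.39 ± 0.09. The G1/S gene that passed was CCNE2, 589, 506 and 552 in F2 against 1168, 1221 and 1189.98 in E1. TYMS and PCNA were lower in F2 than in E1 but under the fold limit, with differences of 0.77 and 0.70.

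Of all tested genes 4.27% were lower and 2.84% higher in E1 than in F2. Of 13 class II genes 5 were lower (38.5%) and 0 higher, and of 53 matrix genes 16 were lower (30.2%) and 4 higher. Of 30 cytokine genes 8 were lower and 8 higher, and of 46 interferon-stimulated genes 4 were lower (8.7%) and 1 higher. HLA-DPA1 was 512, 469 and 438 in F2, -2.43 ± 0.37 apart from E1, and COL4A1 420.4, 421 and 514, -1.86 ± 0.23 apart. CDKN2B was 5639, 5184 and 5847 and CCL2 799, 676 and 681 in F2, both above every E1 library (log2 -1.85 ± 0.09 and -4.46 ± 0.17). In contrast SYNPO2 at 149.5, 125 and 174, WNT2B at 5423, 5302 and 5959 and PRICKLE1 at 2531, 2466 and 2632 in F2 differed from E1 by 0.05 ± 0.26, 0.03 ± 0.09 and 0.22 ± 0.10, none of them past the threshold. CDKN1A was 5519, 5156 and 5185 in F2, so that E1 was higher by 1.02 ± 0.07, though with all samples scaled to 1 total that difference was 0.94 and no longer passed. EDA2R was 68.9, 67.6 and 75.8 in F2 and higher in E1, by 4.19. All 10 of the largest falls except DDIT4L were lower in E1 than in F2 too, with log2 differences from -6.93 for ARSD to -4.67 for ARAP2, and the large rises named above were higher in E1 than in F2, RP11-7F17.7 at 0.72 being the exception.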

How the data were processed

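Poly(A) RNA from 18 G401 cultures was sequenced with a strand-marking kit and paired 50-base reads, per the labels' protocols. Per the submitters' processing notes, Trim Galore 0.4.4, STAR 2.6.0a, HTSeq and DESeq2 were used with genome build hg19. The authors deposited a signal, gene counts divided by 1 size factor per sample, and every value was a whole number of reads (tolerance 0.001) after multiplication by that factor, for 100% of values. Values were tested with limma 3.58.1 (R 4.3.3) on log2(value + 1), with eBayes and a mean-variance trend, all 18 samples entering as 6 group means. P-values were adjusted by Benjamini-Hochberg over the 16276 tested genes. Over all 18 libraries the depth was 25709489 to 39314860 reads, and a group with at most 3 reads in every library counted as at the floor, against which folds are lower bounds over counting error only. P-values measure the spread between cultures of a line, and E1 and F2 are 1 clone each. Whether the control line is 1 clone or a pool is not given in the sources used here.

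The gene lists and members were chosen with earlier results of these data known. Named genes are 13 given by name (RB1, SMARCB1, PGBD5 and genes of E2F, PRC2 and the cell cycle), the 10 largest rises and falls with a mean of at least 50 and separated groups, up to 4 members per list with a mean of at least 50 (or its most abundant member where none passed), and members given to complete a count; a few genes that the rule names are not reported here. Alternatives were other pseudocounts, filters and scalings, no fold limit, only the compared groups in the fit, a replicate block, leaving out each replicate, and edgeR 4.0.16 and DESeq2 1.42.0 on the recovered reads. The fit was tested on simulated counts. Promoter letters came from a RefSeq table (GRCh38.p14). Figures used matplotlib 3.10.9.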

Additional observations from a re-analysis of the deposited data

Results flagged for a closer look

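The difference between E1 and WT changed with tazemetostat past the threshold in 1707 genes by the test of that change in limma. Among the genes named above, it was larger under tazemetostat by 1.42 for EZH2, 1.70 for CCNA2, 1.60 for MKI67, 1.27 for AURKB and 1.54 for RBL1 on the log2 scale. The change was 5.54 for PGBD5, 4.92 for PRKD1, 2.76 for ZSCAN4, 4.30 for TRIM49C, 3.81 for TRIM49, 5.02 for TMEM246, 3.35 for PDE11A and 3.16 for NTRK3. It was negative for EPHA3 (-2.40), NDNF (-6.36), C8orf4 (-6.73), ARAP2 (-5.16), PPARGC1A (-5.67) and DDIT4L (-5.87). edgeR's quasi-likelihood test did not call this change for PRKD1, ZSCAN4, TRIM49C, TRIM49, NDNF, C8orf4, ARAP2 or DDIT4L, which had few or no reads in the DMSO libraries of both lines. For PDE11A and NTRK3, E1 had 0 reads in DMSO and at most 3 and 8 reads under tazemetostat, so their values describe the floor in E1 and the fall of the WT mean from 864 to 244 and from 723 to 262; with a pseudocount of 0.5 and of 5 they were 4.06 and 2.28 for PDE11A and 3.86 and 2.06 for NTRK3.

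E1 and F2, both RB1 knockouts, differed under tazemetostat past the threshold in 1158 genes. E1 was above F2 by 1.02 for CDKN1A, 7.06 for RP11-493L12.3, 4.0 for PRKD1, 6.38 for EPHA3, 2.01 for INPP5D, 3.45 for ZSCAN4, 3.26 for TRIM49C, 3.42 for TRIM49, 2.06 for TMEM246 and 1.32 for DDIT4L. The log2 difference was -1.85 for CDKN2B, -6.08 for LINC00052, -6.93 for ARSD, -5.80 for NDNF, -5.30 for C8orf4, -6.55 for PDE11A, -5.72 for NTRK3, -4.67 for ARAP2, -5.27 for PPARGC1A and -6.03 for GYLTL1B. DDIT4L had 0 reads in F2 and at most 3 reads in each E1 library, so its value of 1.32 describes the floor.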

How the results depend on the processing

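Counts of genes past the threshold moved most with the fold limit and the filter. Without a fold limit, 8508 genes differed between E1 and WT under tazemetostat, 3735 in DMSO and 5644 between E1 and F2, of which 52.8% were higher in E1 against 40.0% with the limit, and the difference changed with tazemetostat in 5823. Without the filter on low values the tazemetostat count was 3216 and the E1 against F2 count 2011. With a mean of at least 50 the counts were 1195, 524 in DMSO and 630 for E1 against F2. edgeR gave 2009, 775, 1362 and 1198 genes, and DESeq2 1937, 759, 1305 and 1139, for tazemetostat, DMSO, the change between them and E1 against F2. Leaving out 1 replicate at a time gave 1907 to 1994, 803 to 856, 1598 to 1987 and 1077 to 1249, and -1.39 to -1.30 for RB1. Same-numbered libraries of E1 and WT under tazemetostat deviated from their group means with correlations of -0.256, 0.231 and -0.131, so the numbers were not taken as pairs. With a replicate block the counts were 1956, 817, 1714 and 1165. Of 1530 refits of the 86 named genes past the threshold under tazemetostat, 1526 kept direction and call, and 4 lost the call, over ITGA10, NEB and CNN1. The call was lost in 13 of 630 refits over 7 genes in DMSO, 38 of 1440 over 23 of 60 genes for the change with tazemetostat, and 12 of 810 over 3 genes for E1 against F2. Scaled to 1 total, the change with tazemetostat was upward in 915 genes and downward in 808, against 774 and 933. For CXCL6, at 0 or near 0 in DMSO, the change with tazemetostat was -1.37 in limma and 0.14 in edgeR. The cause was not tested. Scalings moved the median of all genes by under 0.1. Depth limits what can be said of genes at 3 reads or fewer.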

Other observations

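The following groups were picked after their values were seen, so they carry counts and no test. Of 28 genes of the cleavage-stage embryo that DUX4 activates, 18 were too low to test, 11 of them with at most 3 reads in each of the 6 libraries. ZSCAN4, PRAMEF12, TRIM43, TRIM49, TRIM49C, TRIM64 and KDM4E were higher in E1 than in WT under tazemetostat. Most of these passed the filter on the mean through E1 alone, so their number carries no weight: TRIM43, for example, was 106.5, 86.1 and 82.9 in E1 and 10.8, 11.2 and 7.4 in WT. RFPL2, RFPL4B and SLC34A2, the other 3 tested, did not pass, at -0.04, 0.50 and 0.71. DUX4 itself had 0 reads in every library. Members of the TRIM and PRAMEF families are near identical, so reads may have been split among them. The augmin subunits, which nucleate microtubules within the spindle, had 4 of 7 tested genes higher (HAUS1, HAUS2, HAUS4 and HAUS5) and 0 lower, with a median of 1.06. Over all tested genes 5.41% were higher.

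Histone genes with HIST names, whose main transcripts lack a poly(A) tail, were more often lower than higher where tested. Of 33 tested of 89 listed, 8 were lower in E1 and 2 higher, with a median of -0.75. Over all tested genes 6.53% were lower and 5.41% higher. The difference between E1 and WT fell with tazemetostat in 16 and rose in 0, where 10.5% of all tested genes passed this other test in either direction. Members too low to test were more often higher in E1 where the groups did not overlap. HIST1H1A, HIST1H1B, HIST1H1D, HIST1H2AH, HIST1H2AM, HIST1H3F, HIST1H3PS1, HIST1H4A, HIST1H4C and HIST2H2AC lay above WT in every library. HIST1H1T and HIST3H2BA lay below it. HIST1H1B was 16.0, 10.6 and 22.6 in E1 and 4.9, 0.9 and 2.5 in WT under tazemetostat. HIST1H1T was 0.0, 0.0 and 0.0 against 4.9, 4.7 and 2.5. Among matrix metalloproteinases, MMP1, MMP2, MMP10, MMP15, MMP16 and MMP24 were lower and MMP9, MMP19 and MMP25 higher, of 11 tested. Of 11 tested cadherins of 23 listed, CDH1, CDH2, CDH6, CDH13 and CDH15 were lower and CDH23 was higher. CDH2, CDH6, CDH13 and CDH15 were under 10 in every E1 library and passed the filter through WT, so their number carries no weight. In DMSO CDH1 was 8.0, 14.5 and 25.3 in E1 and 255.9, 282.7 and 230.0 in WT. Its gap narrowed with tazemetostat, by 2.73 on the log2 scale.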
